A study of Mus musculus with 6 samples.

Results

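The genes described here encode 8 proteins that have been linked to lactoferrin at the cell surface or that belong to the low-density lipoprotein (LDL) receptor family. They are *Lrp1*, *Lrp2*, *Lrp8*, *Vldlr*, *Lrpap1*, *Ncl*, *Tlr4* and *Cd14*, chosen by name with earlier results of these data known. Each name matched 1 of the 55416 rows of the expression table. RNA was sequenced from satellite cells (SCs), the stem cells of skeletal muscle, in 3 WT libraries and 3 libraries of mice that lack lactoferrin (*Ltf*-KO). Hind leg muscle was digested and Sca1-/CD11b-/CD34+/α7-integrin+ cells were sorted, seeded on Matrigel and harvested on day 4 of growth culture, without any other treatment in either genotype. Both genotypes grew in medium with fetal bovine serum at 20%, chick embryo extract at 1% and basic fibroblast growth factor at 10 ng/ml. The knockout is systemic, so every cell of the animal carries it, and it was made in C57/BL6N zygotes with CRISPR-Cas9 cuts in introns 2 and 8 of *Ltf*. The methods give mice of 8 to 10 weeks unless stated otherwise, and the strain of the WT mice is not given in the sources used here. The labels do not say whether the libraries of a genotype came from separate animals, so the p-values below measure the spread between these libraries, which may be technical.

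Lactoferrin is a secreted iron-binding protein, and no single receptor accounts for all its reported actions. LRP1 is a very large endocytic receptor that takes up proteases, their inhibitors and apolipoproteins, and it was reported to pass lactoferrin signals to ERK1/2 in a myoblast line. LRP2 (megalin) does similar uptake in absorptive epithelia such as the kidney tubule, while VLDLR and LRP8 bind apolipoprotein E and are the receptors for Reelin. LRPAP1 (RAP) is the chaperone that keeps ligands off these receptors in the endoplasmic reticulum. Nucleolin, encoded by *Ncl*, is mainly a nucleolar protein of ribosome synthesis that is also found at the surface of growing cells. TLR4 and CD14 together recognise lipopolysaccharide and are best known from myeloid cells.

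The annotation deposited beside the values shows how these genes are related. An LDL receptor class A domain, the ligand-binding module of the family, and the class B repeat were both listed for the same 4 of the 8 genes, *Lrp1*, *Lrp2*, *Lrp8* and *Vldlr*. *Tlr4* and *Cd14* both held leucine-rich repeats, and *Tlr4* also the TIR domain that passes its signal on. *Ncl* held RNA recognition motifs and *Lrpap1* the domains of the RAP chaperone. The term for the cell surface was attached to 7 of the 8 genes, all but *Lrp1*. That for receptor-mediated endocytosis was attached to 4, *Lrp1*, *Lrp2*, *Vldlr* and *Cd14*. Positive regulation of the ERK1 and ERK2 cascade was listed for *Lrp1* alone among the 8, and the KEGG pathway of MAPK signalling for *Cd14* alone.

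Promoter sequences are shown for the genes at the top and the bottom of the range of levels given below, *Ncl*, *Lrp1* and *Lrp2*. They are RefSeq windows on GRCm38.p6 that run from 250 bases before to 50 bases after the gene start, written 5′ to 3′ on the strand of the gene. The selection of windows left out a chromosome. RefSeq windows of 6 of the 8 genes were examined, and none of *Tlr4* or *Cd14*. The capitals mark each match to GGGCGG or its reverse complement CCGCCC, the GC box that Sp1-type factors can bind. The *Ncl* window is chr1:86359406-86359705, that of *Lrp1* is chr10:127621099-127621398 and that of *Lrp2* is chr2:69585980-69586279, all on the minus strand.
*Ncl* promoter: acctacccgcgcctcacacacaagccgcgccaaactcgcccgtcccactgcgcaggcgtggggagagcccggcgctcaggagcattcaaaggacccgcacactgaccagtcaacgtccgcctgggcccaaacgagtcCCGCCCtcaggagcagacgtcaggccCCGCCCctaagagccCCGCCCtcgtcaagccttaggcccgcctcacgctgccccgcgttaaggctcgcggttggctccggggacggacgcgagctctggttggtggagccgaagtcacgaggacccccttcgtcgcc
*Lrp1* promoter: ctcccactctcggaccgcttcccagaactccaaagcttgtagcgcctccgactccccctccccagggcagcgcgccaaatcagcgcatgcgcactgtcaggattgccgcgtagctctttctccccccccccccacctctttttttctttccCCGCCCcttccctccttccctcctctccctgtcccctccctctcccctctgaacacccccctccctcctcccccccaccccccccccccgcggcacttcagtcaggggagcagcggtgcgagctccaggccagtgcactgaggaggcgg
*Lrp2* promoter: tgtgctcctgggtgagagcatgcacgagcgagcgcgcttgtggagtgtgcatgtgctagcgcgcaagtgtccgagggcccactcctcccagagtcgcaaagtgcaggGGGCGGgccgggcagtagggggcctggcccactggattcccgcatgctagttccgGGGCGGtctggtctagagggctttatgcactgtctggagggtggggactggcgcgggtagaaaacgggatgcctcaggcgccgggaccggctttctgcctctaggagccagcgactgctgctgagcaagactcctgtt
On both strands, the GC box occurred 3 times in the *Ncl* window, once in that of *Lrp1* and 2 times in that of *Lrp2*. It was found in 35.7% of all 32851 windows of this length. The *Lrpap1* window on chromosome 5 held 5 copies, the most among the 6 genes examined. The TATA box letters TATAAA, present in 13.6% of all windows, and the E-box CACGTG, present in 7.15%, were in none of the windows of the 6 genes examined. The *Ncl* window held 33 CpG dinucleotides, more than 91.4% of all windows, the *Lrp2* window 20 and the *Lrp1* window 16, against a median of 7. The *Lrp2* window thus had more GC boxes and CpG sites than that of *Lrp1*, although *Lrp1* RNA was far more abundant.

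The files give TPM values (transcripts per 1e6 transcripts), which divide reads by gene length and scale each library to about the same total, here 993650 to 994356. Levels of different genes can therefore be set side by side, but how many reads a value rests on is unknown. Between 12828 and 12951 genes reached 1 TPM in a library. The targeted gene *Ltf* (ENSMUSG00000032496) was at 0.12, 0.02 and 0.02 TPM in WT replicates 1, 2 and 3 and at 0.02, 0.03 and 0 TPM in *Ltf*-KO replicates 1, 2 and 3, so the deletion cannot be checked from these cultures. The cells were myogenic in both genotypes, with *Myod1* at 778 ± 34.6 and 780 ± 30.1 TPM in WT and *Ltf*-KO SCs (SD, n = 3 each) and *Pax7* at 41.01 ± 1.72 and 39.6 ± 3.39 TPM (SD, n = 3 each). *Cd34*, part of the sort, was at 4.41 to 6.20 TPM across the libraries.

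The 8 genes spanned more than 3 orders of magnitude, and their order was the same in every library. From high to low it ran *Ncl*, *Lrp1*, *Lrpap1*, *Lrp8*, *Tlr4*, *Cd14*, *Vldlr* and *Lrp2*. None of the ranges of neighbours in this order overlapped over the 6 libraries, the closest means as a ratio being those of *Tlr4* and *Cd14*, 1.38-fold apart, where the lowest *Tlr4* value was 9.20 TPM and the highest *Cd14* value 8.18 TPM. *Ncl* was the 150th most abundant of the 12956 genes that averaged 1 TPM or more and *Lrp1* the 540th. *Lrp8* stood near the middle, above 49.3% of these genes, and *Vldlr* above 11.8%. *Lrp2* was the only one of the 8 whose mean was under 1 TPM.

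**Figure D1:**
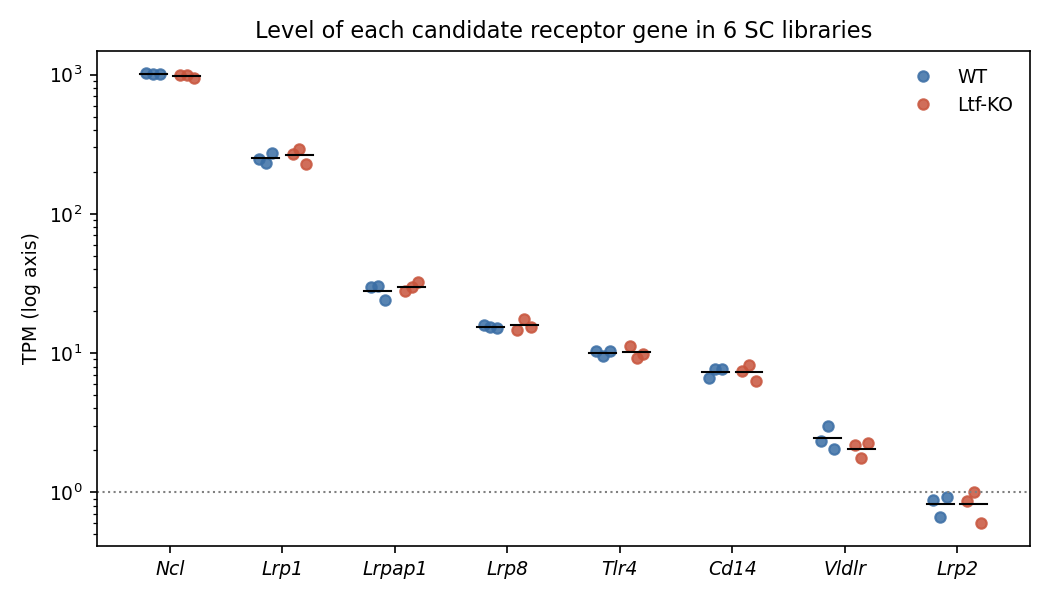
TPM of the 8 genes on a log axis in each of the 6 libraries, with WT in blue, *Ltf*-KO in red and a black bar at the mean of each genotype. The genes run from *Ncl* near the top of the axis to *Lrp2* under the dotted line at 1 TPM in most libraries, and within each gene the genotypes lie close together.

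The genotypes were compared by limma, as log2(TPM + 1) and with the variance allowed to follow the mean, over the 12956 genes that averaged 1 TPM or more. The Benjamini-Hochberg method adjusted the p-values over all these genes. Adding 1 to the TPM understates the change of a low gene. The test took in 7 of the 8 genes and left out *Lrp2*. Of the 7, 0 had a limma adjusted p under 0.05, as did 0% of all genes tested, and 0 had an unadjusted p under 0.05, against 3.78% (490) of all genes tested, 2.01% higher and 1.78% lower in *Ltf*-KO. The lower ones were 46.9% of the 490, against 60.04% of those called after quantile normalization. The log2 fold changes of the 7 receptor genes lay between -0.17 and 0.097 with 4 above and 3 below 0, and their median was 0.0067, against 0.011 for all genes tested. The limma adjusted p was 0.999 for each of the 7. The 95% confidence intervals of the 7 fold changes of TPM + 1, not widened for the number of genes, together reached from 0.691-fold to 1.27-fold. A doubling or halving of TPM + 1 lay outside each of them. With 0.1 added in place of 1, the log2 fold change of *Vldlr*, the least abundant of the 7, was -0.23.

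**Figure D2:**
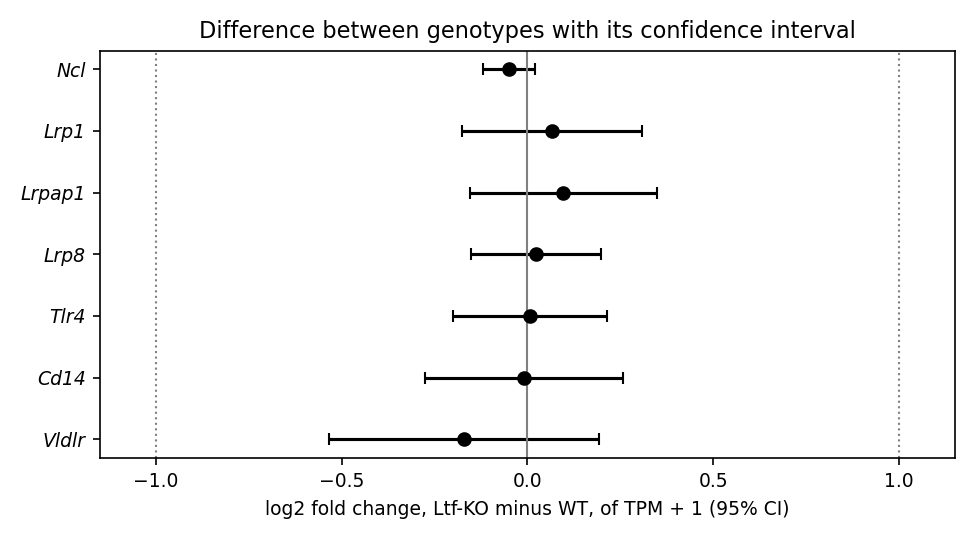
Log2 fold change of TPM + 1 between *Ltf*-KO and WT (points) with its 95% confidence interval from limma (bars) for the 7 tested genes, with dotted lines at -1 and 1 for a 2-fold difference. Every interval contains 0, the narrowest is that of *Ncl* and the widest that of *Vldlr*.

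*Lrp1* (ENSMUSG00000040249), the endocytic receptor reported for lactoferrin in a myoblast line, was at 246.70, 232.67 and 272.97 TPM in WT replicates 1, 2 and 3 and at 271.14, 290.85 and 227.64 TPM in *Ltf*-KO replicates 1, 2 and 3. The highest and the lowest values were thus both from *Ltf*-KO libraries, and the WT values lay between them. The log2 fold change was 0.065 (standard error 0.101, limma adjusted p = 0.999, exact two-sided permutation p = 0.8, where 3 libraries against 3 cannot go below 0.1), with a 95% confidence interval of 0.885-fold to 1.24-fold. It was -0.01 without *Ltf*-KO replicate 2 and 0.17 without *Ltf*-KO replicate 3, so a single library set its sign.

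*Lrp1* was the most abundant of the LDL-receptor family genes compared. Among 14 LDL-receptor family genes, which were the 4 above and *Lrp1b*, *Lrp3*, *Lrp4*, *Lrp5*, *Lrp6*, *Lrp10*, *Lrp11*, *Lrp12*, *Sorl1* and *Ldlrad3*, it held 60.1 ± 2.29% of the summed TPM in WT and 60.7 ± 2.52% in *Ltf*-KO SCs (SD, n = 3 each). These shares are of the 14 genes named and not of the whole family. Of the 49 genes of the table with an LDL receptor class A domain, a set drawn up after the values were seen, *Lrp1* also had the highest mean, 257 TPM, ahead of *Prkcsh* at 129 TPM and *Hspg2* at 114 TPM. In that set 21 genes were tested and 0 had an unadjusted or an adjusted limma p under 0.05.

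*Lrp2* (ENSMUSG00000027070) was at 0.88, 0.66 and 0.92 TPM in WT and at 0.87, 1.01 and 0.60 TPM in *Ltf*-KO replicates 1, 2 and 3. As for *Lrp1*, the highest and the lowest values were from *Ltf*-KO replicates 2 and 3. It was under the filter of the test, and its genotype means of 0.82 ± 0.14 and 0.827 ± 0.208 TPM (SD, n = 3 each) differed by less than either spread.

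*Lrp8* (ENSMUSG00000028613), a receptor for Reelin and apolipoprotein E, was at 15.96, 15.40 and 15.20 TPM in WT and at 14.74, 17.44 and 15.29 TPM in *Ltf*-KO replicates 1, 2 and 3. Its log2 fold change was 0.023 (standard error 0.073, exact permutation p = 0.9), and the *Ltf*-KO values lay on both sides of the WT values. *Vldlr* (ENSMUSG00000024924), the other Reelin receptor, was at 2.32, 3.01 and 2.05 TPM in WT and at 2.18, 1.75 and 2.26 TPM in *Ltf*-KO replicates 1, 2 and 3. This was the largest fitted difference of the 7 genes, a fitted log2 difference of -0.17 (standard error 0.151, exact permutation p = 0.4), but its genotypes overlapped. It was also the least precise, with a coefficient of variation of 20.1% in WT and 13.3% in *Ltf*-KO SCs, where the median gene of 1 to 10 TPM had 14.1% in each genotype. Between them, *Lrp8* RNA was more abundant than *Vldlr* RNA in 6 of 6 libraries. *Reln*, which encodes their ligand Reelin, was at 31.0 to 38.1 TPM across the libraries, with the highest value in *Ltf*-KO replicate 2.

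*Lrpap1* (ENSMUSG00000029103), the chaperone of the family, was at 30.01, 30.39 and 23.95 TPM in WT and at 27.95, 29.65 and 32.47 TPM in *Ltf*-KO replicates 1, 2 and 3. The lowest value was from WT replicate 3, and the other 5 lay between 27.95 and 32.47 TPM. Its log2 fold change was 0.097 (standard error 0.105, exact permutation p = 0.6), and -0.011 without WT replicate 3. Set against its main client, there were 12.2, 13.1 and 8.77 TPM of *Lrpap1* for every 100 TPM of *Lrp1* in WT replicates 1, 2 and 3 and 10.3, 10.2 and 14.3 in *Ltf*-KO replicates 1, 2 and 3. The log2 ratio differed between genotypes by 0.035, less than its SD of 0.306 in WT and 0.275 in *Ltf*-KO SCs (exact two-sided permutation p = 1).

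*Ncl* (ENSMUSG00000026234) was at 1024.25, 1017.76 and 1012.41 TPM in WT and at 999.29, 1002.01 and 952.53 TPM in *Ltf*-KO replicates 1, 2 and 3. It was the only one of the 7 tested genes whose genotypes did not overlap, all 3 *Ltf*-KO libraries being lower, as was so for 3.73% of all genes tested, while 8.46% did not overlap in either direction. The difference was small. The log2 fold change was -0.049 (standard error 0.029, limma adjusted p = 0.999), a fold of 0.967 with a 95% confidence interval from 0.921 to 1.02, and the exact two-sided permutation p was 0.1, the smallest possible here. The genotypes of *Ncl* overlapped after quantile normalization, where its log2 fold change was -0.024. With median-of-ratios scaling that change was -0.061, so these 2 alternatives moved it in opposite directions. *Npm1*, another abundant nucleolar protein gene, which has pseudogenes that could share its reads, was also lower without overlap. It was at 2314 ± 10.0 and 2231 ± 24.9 TPM in WT and *Ltf*-KO SCs (SD, n = 3 each), a fitted log2 difference of -0.053 (standard error 0.022, limma adjusted p = 0.999), or -0.032 after quantile normalization. With median-of-ratios scaling the difference was -0.065 (limma unadjusted p = 0.032, adjusted p = 0.9997), where 502 of all genes tested passed 0.05 before adjustment. In the fit of the deposited TPM values, 8 of 14 nucleolar genes, which included *Fbl*, *Nop56* and *Dkc1*, had a log2 fold change below 0. Their median was -0.0099, and 0 had an unadjusted p under 0.05 in that fit.

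*Tlr4* (ENSMUSG00000039005), the signalling receptor for lipopolysaccharide, was at 10.28, 9.49 and 10.38 TPM in WT and at 11.27, 9.20 and 9.91 TPM in *Ltf*-KO replicates 1, 2 and 3. *Cd14* (ENSMUSG00000051439), which hands lipopolysaccharide to it, was at 6.57, 7.67 and 7.69 TPM in WT and at 7.38, 8.18 and 6.27 TPM in *Ltf*-KO replicates 1, 2 and 3. For both genes the *Ltf*-KO values spread on both sides of the WT values. Their log2 fold changes of 0.0067 (standard error 0.086) and -0.0094 (standard error 0.111), each with an exact permutation p of 1, were the closest to 0 of the 7 genes, and that of *Tlr4* was -0.021 after quantile normalization. *Ly96*, the co-receptor that TLR4 needs to bind lipopolysaccharide, was at 5.84 to 8.99 TPM, so RNA of all 3 parts of the complex was measured in each library.

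Markers of white blood cells were scarce in the same libraries. *Ptprc* (CD45) reached at most 0.16 TPM, *Csf1r* 0.39 TPM and *Adgre1* 0.08 TPM. *Itgam*, the CD11b gene that the sort selected against, reached at most 0.07 TPM. Each of these was highest in WT replicate 1, while *Fcgr1* reached 0.03 TPM in WT replicate 2. *Lyz2* was at 7.22 TPM in WT replicate 1 and at 0.38 to 2.31 TPM in the other libraries. *Cd68* was at 3.56, 3.58 and 3.98 TPM in WT and at 3.41, 3.52 and 3.12 TPM in *Ltf*-KO replicates 1, 2 and 3. It was thus lower in *Ltf*-KO without overlap, as were 3.73% of all genes tested. The 7 leukocyte markers summed to 4.46 to 11.5 TPM in WT and to 3.59 to 4.69 TPM in *Ltf*-KO libraries. WT replicate 1 was thus the highest library for *Lyz2* and most of these markers. There *Tlr4* was within the range of the other libraries and *Cd14* within the range of the *Ltf*-KO libraries. The part of leukocytes in the levels of *Tlr4* and *Cd14* was not tested.

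*Lrp1* varied between the libraries of a genotype more than most genes of its level, with a coefficient of variation of 8.16% in WT and 12.3% in *Ltf*-KO SCs against medians of 3.42% and 3.55% for genes of 100 TPM or more. The order of the libraries by *Lrp1*, from *Ltf*-KO replicate 2 at the top through WT replicate 3, *Ltf*-KO replicate 1, WT replicate 1 and WT replicate 2 to *Ltf*-KO replicate 3, was the same for *Thbs1* and *Fn1*. These genes encode thrombospondin 1 and fibronectin, both ligands of LRP1, and they were singled out after their values were seen. None of the other tested genes of the ligand list described below had the whole of this order. *Ccn2* differed only in that *Ltf*-KO replicate 1 came before WT replicate 3. *Lpl* was lowest in *Ltf*-KO replicate 2, at 8.49 TPM, and *Apoe* in WT replicate 3, at 12.44 TPM. *Thbs1* went from 767.91 TPM in *Ltf*-KO replicate 2 to 522.14 TPM in *Ltf*-KO replicate 3, and *Fn1* from 457.55 to 308.60 TPM. *Mmp14*, a membrane protease that can shed LRP1, was likewise highest in *Ltf*-KO replicate 2 at 97.57 TPM and lowest in *Ltf*-KO replicate 3 at 75.96 TPM.

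The sum of 8 early differentiation genes, among them *Myog*, *Mymk* and *Actc1*, was lowest in *Ltf*-KO replicate 2 at 978 TPM and highest in *Ltf*-KO replicate 3 at 1738 TPM, and it ranged from 995 to 1451 TPM in WT libraries. The libraries with the most and the least *Lrp1* were thus those with the least and the most RNA of these genes, and the part of differentiation in the *Lrp1* levels was not tested. Since RNA was taken from whole cultures, fewer cells of a kind and less RNA per cell cannot be told apart. *Vldlr* was lowest, at 1.75 TPM, in the library where *Lrp1* was highest. The 7 fibroblast markers summed to 105 to 110 TPM in WT and to 104 to 138 TPM in *Ltf*-KO libraries. The 5 endothelial markers summed to 5.68 to 14.2 and 5.68 to 13.3 TPM, and the 5 smooth muscle and pericyte markers to 449 to 532 and 499.7 to 630 TPM. *Acta2* made up most of this last sum, at 409 to 493 TPM in WT and 450 to 593 TPM in *Ltf*-KO libraries. Like the differentiation sum, *Acta2* was highest in *Ltf*-KO replicate 3. Log2 fold changes above 0 were found for 6 of 6 tested fibroblast markers (median 0.25), 3 of 4 endothelial markers (median 0.1), 3 of 3 smooth muscle and pericyte markers (median 0.19) and 8 of 8 differentiation genes (median 0.14). The same was so for 0 of 2 tested leukocyte markers (median -0.51) and 4 of 9 satellite cell and myoblast markers (median -0.0087). The log2 fold changes of *Myog* (-0.12), *Mymk* (-0.021), *Mymx* (-0.0099) and *Myh8* (-0.055) were below 0 without *Ltf*-KO replicate 3, that of *Myh8* (-0.074) also without WT replicate 3. *Col3a1*, which made up most of the fibroblast sum, was at -0.022 without *Ltf*-KO replicate 1, and *Cspg4* at -0.0092 without *Ltf*-KO replicate 2. *Pdgfrb*, a pericyte marker, was at 4.11 ± 0.526 and 6.42 ± 1.43 TPM in WT and *Ltf*-KO SCs (SD, n = 3 each), a fitted log2 difference of 0.52 (standard error 0.165, limma adjusted p = 0.999). Among the list genes of 1 TPM or more on average it alone passed 0.05 before adjustment, as 3.78% of all genes tested did, and it no longer passed without WT replicate 1, WT replicate 2, *Ltf*-KO replicate 1 or *Ltf*-KO replicate 2 (0.42 to 0.69 over the 6 libraries left out in turn). *Rgs5*, another pericyte gene, was under the filter, at 0.12, 0.18 and 0.13 TPM in WT and 0.23, 0.39 and 0.46 TPM in *Ltf*-KO replicates 1, 2 and 3. Like *Pdgfrb*, it was higher without overlap, as were 4.73% of all genes tested and 3.65% of all genes above 0 TPM in any library. *Myh11* of the same list, also under the filter, overlapped, at 0.17, 0.41 and 0.37 TPM in WT and 0.39, 0.62 and 0.56 TPM in *Ltf*-KO replicates 1, 2 and 3. Whether other cell types had a part in the levels of the receptor genes was not tested.

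**Figure D3:**
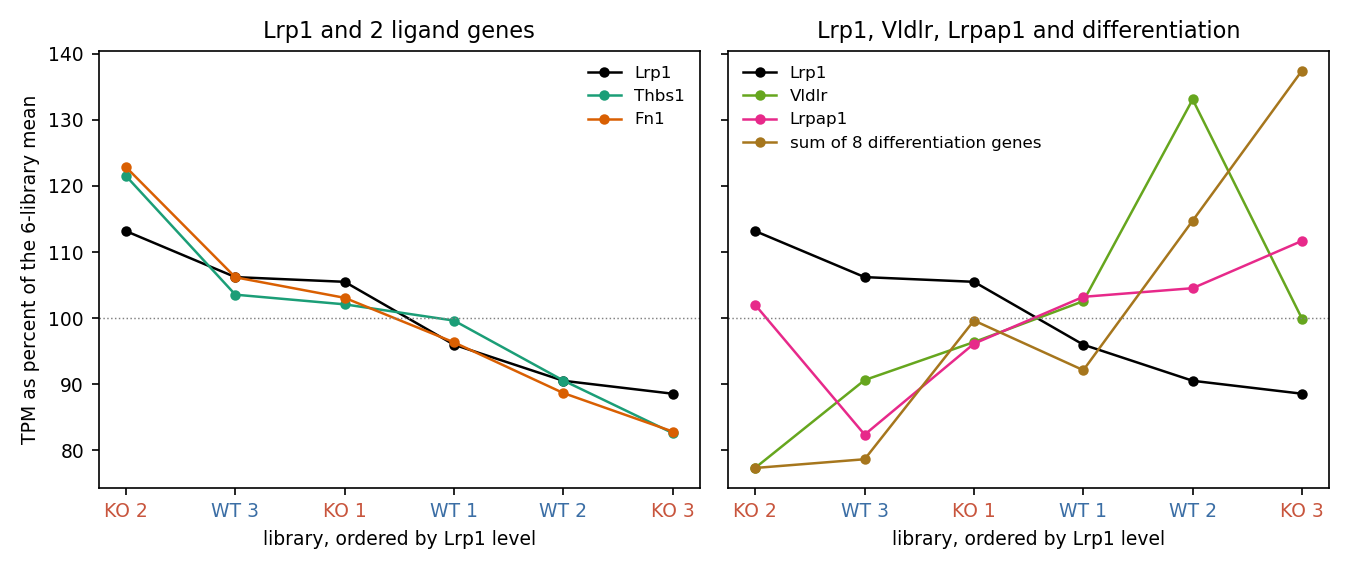
TPM as a percent of the mean of the 6 libraries, with libraries ordered by *Lrp1* (black) and their names in blue for WT and red for *Ltf*-KO. On the left *Thbs1* and *Fn1* descend in the order of *Lrp1*, and on the right the summed TPM of the 8 differentiation genes is lowest where *Lrp1* is highest and highest where it is lowest, with *Vldlr* and *Lrpap1* shown for comparison.

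For each tested gene, the genes of 10 TPM or more on average whose log2(TPM + 1) followed it most closely over the 6 libraries were also looked up, by Pearson's r and as a description only, since 8041 genes were compared over 6 points from the same libraries. *Lrp1* was most like *Cpe*, *Zfp462* and *Sox4*, each at r = 0.994 (n = 6 libraries). *Lrpap1* was most like *Tead2*, *Prrx2* and *Snap47*, with r from 0.986 to 0.996. *Ncl* was most like *Cwc27*, *Pelp1* and *Snrpf*, with r from 0.969 to 0.985. For *Lrp8* they were *Zfp384*, *Btrc* and *Eloa*, for *Vldlr* *Pcgf5*, *Cdc25b* and *Dpm3*, for *Tlr4* *Fuom*, *Apoo* and *Arl16*, and for *Cd14* *Twf2*, *Tecpr1* and *Tmem164*, with r of at least 0.973 throughout.

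The genes that surround these receptors were described by lists chosen for their roles. Of the 10 other LDL-receptor family genes, 9 were tested and *Lrp1b* was listed at 0 in all libraries. 6 of the 9 had a log2 fold change above 0, with a median of 0.025, and 0 had an unadjusted or an adjusted limma p under 0.05. *Lrp10*, which cycles between the Golgi and endosomes, had the lowest p and the highest level of this list, with 34.5 ± 1.46 and 37.1 ± 2.46 TPM (SD, n = 3 each) and a fitted log2 difference of 0.1 (standard error 0.063, limma adjusted p = 0.999), or 0.06 without *Ltf*-KO replicate 2 and 0.15 without *Ltf*-KO replicate 3. *Lrp4*, the agrin co-receptor of the neuromuscular junction, was at 24.1 ± 1.3 and 24.7 ± 1.89 TPM (SD, n = 3 each).

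Of 16 chaperones, adaptors, sheddases and turnover factors of these receptors, 15 were tested, 13 had a log2 fold change above 0 with a list median of 0.042, and 0 had an unadjusted or an adjusted limma p under 0.05. *Mesd*, a chaperone for the LRP5 and LRP6 branch of the family, was at 40.48, 38.60 and 43.38 TPM in WT and at 29.56, 33.37 and 40.48 TPM in *Ltf*-KO replicates 1, 2 and 3. Its genotypes overlapped through *Ltf*-KO replicate 3, and the log2 fold change was -0.25 (standard error 0.114, limma adjusted p = 0.999), or -0.15 without *Ltf*-KO replicate 1 and -0.37 without *Ltf*-KO replicate 3. *Hsp90b1*, the endoplasmic reticulum chaperone gp96, was at 432 ± 3.08 and 447 ± 11.1 TPM, and *Furin*, which cleaves the LRP1 precursor, at 70.02 ± 1.74 and 73.3 ± 2.82 TPM (SD, n = 3 each).

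Of 16 ligand genes, 13 were tested, 10 had a log2 fold change above 0 with a list median of 0.044, and 0 had an unadjusted or an adjusted limma p under 0.05. The most abundant was *Thbs1*, at 619 ± 42.1 and 645 ± 123 TPM in WT and *Ltf*-KO SCs (SD, n = 3 each), whose log2 fold change of 0.044 was between -0.09 and 0.19 with any 1 library left out. *Thbs2* had the lowest p of the list, with a fitted log2 difference of 0.14 (standard error 0.073, limma adjusted p = 0.999), or 0.091 without *Ltf*-KO replicate 2.

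A list of 12 other genes held reported lactoferrin-binding surface molecules and, for the most part, heparan sulfate proteoglycans taken as a class. Of these, 8 were tested and 0 had an unadjusted or an adjusted limma p under 0.05. The core proteins *Gpc1*, *Sdc3* and *Sdc4* were between 99.58 and 130.91 TPM in every library. *Sdc3* (syndecan 3) did not overlap between genotypes, at 117 ± 0.936 and 124 ± 5.34 TPM in WT and *Ltf*-KO SCs (SD, n = 3 each), with a fitted log2 difference of 0.072 (standard error 0.041, limma adjusted p = 0.999), or 0.038 without *Ltf*-KO replicate 2, and 4.73% of all genes tested were likewise higher without overlap. *Cxcr4*, a chemokine receptor also reported to bind lactoferrin, was at 58.69 to 78.84 TPM across the libraries. Among 14 genes of Toll-like receptor signalling, 10 were tested and 0 had an unadjusted or an adjusted limma p under 0.05. *Ticam1* (TRIF), an adaptor of TLR4, was higher without overlap, at 3.21 ± 0.122 and 3.82 ± 0.368 TPM (SD, n = 3 each), as was *Traf6* at 6.86 ± 0.0833 and 7.28 ± 0.222 TPM (SD, n = 3 each).

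Among the list genes under the filter of 1 TPM, 4 that stand close to these receptors did not overlap between genotypes, and they were singled out after their values were seen. *Dab1*, the adaptor that binds VLDLR and LRP8 and passes on the Reelin signal, was at 0.01, 0.02 and 0.02 TPM in WT and at 0.24, 0.26 and 0.55 TPM in *Ltf*-KO replicates 1, 2 and 3. *Mmp9*, a secreted protease that LRP1 clears, was at 0, 0.04 and 0.06 TPM in WT and at 0.38, 0.30 and 0.28 TPM in *Ltf*-KO replicates 1, 2 and 3. Both were higher in all 3 *Ltf*-KO libraries. *Itln1*, which encodes intelectin 1, the receptor described for lactoferrin in the intestine, was at 0.37, 0.50 and 0.33 TPM in WT and at 0.19, 0.29 and 0.07 TPM in *Ltf*-KO replicates 1, 2 and 3, all lower. *Asgr2*, a subunit of the hepatic asialoglycoprotein receptor, was listed at 0 in each WT library and reached 0.14, 0.06 and 0.30 TPM in *Ltf*-KO replicates 1, 2 and 3.

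A limma fit of all 26553 genes above 0 TPM in any library gave these 4 genes log2 fold changes of 0.4 for *Dab1* (standard error 0.092), 0.35 for *Mmp9* (standard error 0.049), -0.24 for *Itln1* (standard error 0.089) and 0.22 for *Asgr2* (standard error 0.076). Each had an unadjusted p under 0.05, but the 4 were picked because their genotypes did not overlap, so this is no separate test of them. *Asgr2*, at 0 in each WT library, entered that fit only through its *Ltf*-KO values. In that fit 3.35% of genes, 1.8% higher and 1.55% lower, passed 0.05 before adjustment and 0% after it. The limma adjusted p was 0.765 for *Mmp9* and 0.946 for the other 3. Of all these genes 6.67% did not overlap between genotypes, 3.65% being higher and 3.02% lower in *Ltf*-KO.

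**Figure D4:**
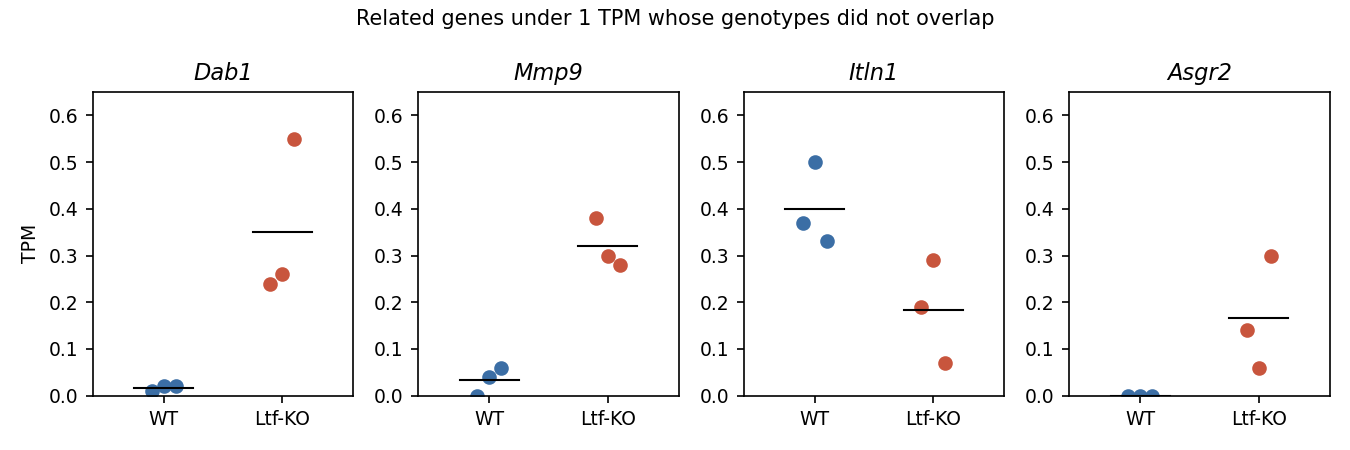
TPM of *Dab1*, *Mmp9*, *Itln1* and *Asgr2* in the 3 WT (blue) and 3 *Ltf*-KO (red) libraries on a linear axis from 0, with a black bar at each mean. All values lie under 0.6 TPM, *Dab1*, *Mmp9* and *Asgr2* are higher in each *Ltf*-KO library than in any WT library, and *Itln1* is lower.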

How the data were processed

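SCs of 3 WT and 3 *Ltf*-KO samples were sequenced as total RNA, with groups and replicate numbers taken from the sample titles. The authors deposited 1 table of TPM values with 2 decimals for 55416 genes, extracted and normalized by the sequencing provider. The submitters' processing notes name the build GRCm39, while the aligner, counter and annotation release are not given in the sources used here. TPM keeps no depth, so counting error could not be given and tests that need counts were not run. Members and lists were chosen with earlier results of these data known. A few genes of these lists are not reported here and were left out of the lists' counts and shares. The 8 members were matched by gene name, and no name repeated.

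limma 3.58.1 in R 4.3.3 (lmFit, eBayes with a variance trend) was run on log2(TPM + 1) for 12956 genes (23.4%), those averaging 1 TPM or more. Tests were two-sided, with p-values adjusted over all genes tested by the Benjamini-Hochberg method and a threshold of 0.05. The fit was tested on simulated data. Single ratios were compared by an exact permutation test. Of each list, the text names the 3 tested genes with the lowest p and the gene with the highest level where they bear on the members, and for each tested member the 3 genes most like it. Other genes are named as singled out after their values were seen or for their role. Alternatives were a pseudocount of 0.1, no filter, a filter at 10 TPM, quantile normalization, median-of-ratios scaling, no variance trend, the replicate number as a block, and each library left out in turn. Promoter windows are RefSeq's on GRCm38.p6, and gene positions on GRCm39 are not used here.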

Additional observations from a re-analysis of the deposited data

How the results depend on the processing

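Of the 7 tested receptor genes, 0 had an adjusted limma p under 0.05 in any of the 13 alternatives that tested them, the lowest being 0.946, and 0 passed 0.05 before adjustment. The filter at 10 TPM left out *Vldlr* and *Cd14*. The number of all genes at an adjusted p under 0.05 was 0, and 0 to 6 with 1 library left out (6 without WT replicate 2). Genes at an unadjusted p under 0.05 numbered 490, but 890 with no filter and 281 with a filter at 10 TPM. Genes whose genotypes did not overlap numbered 1096, but 1771 with no filter, 661 with a filter at 10 TPM and 2183 to 2457 with 1 library left out, where fewer libraries have to be told apart. Among the 7 genes it was 1 (*Ncl*), 0 with quantile normalization, and 1 to 2 with 1 library left out (2 without WT replicate 3). *Ltf*-KO was the lower genotype for 46.9% of those 490, a share of 60.04% after quantile normalization.

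Log2 fold changes crossed 0 with 1 library left out for *Lrp1* (-0.0103 to 0.166), *Lrp8* (-0.045 to 0.069), *Lrpap1* (-0.011 to 0.155), *Tlr4* (-0.066 to 0.067) and *Cd14* (-0.087 to 0.081), and stayed below 0 for *Ncl* (-0.061 to -0.025) and *Vldlr* (-0.256 to -0.059). *Tlr4* was -0.021 with quantile normalization and -0.0044 with median-of-ratios scaling. The log2 ratio of *Lrpap1* to *Lrp1* ranged from -0.139 to 0.148. The same held for 14 of 40 named list genes, which were *Lrp4* (-0.028 to 0.073), *Thbs1* (-0.09005 to 0.188), *Irak1* (-0.129 to 0.011), *Pax7* (-0.114 to 0.0038), *Itga7* (-0.023 to 0.059), *Myod1* (-0.026 to 0.038), *Mymk* (-0.021 to 0.305), *Mymx* (-0.0099 to 0.562), *Myh8* (-0.074 to 0.366), *Myog* (-0.123 to 0.341), *Col3a1* (-0.022 to 0.171), *Kdr* (-0.116 to 0.018), *Emcn* (-0.246 to 0.554) and *Cspg4* (-0.0092 to 0.194). With quantile normalization and median-of-ratios scaling *Myod1* was -0.0029 and -0.0085. The cause was not tested.

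Same-numbered libraries deviated from their genotype's means with correlations of -0.041, -0.058 and -0.088 over 12956 genes. With 3 libraries per genotype this cannot tell whether same-numbered libraries were handled together. With the replicate block 0 genes passed after adjustment and 380 before it, at the same threshold, and none of the 7 receptor genes was called. Named list genes that passed 0.05 before adjustment in an alternative included *Mesd*, with the block and without *Ltf*-KO replicate 3. Without that library they also included *Lrp10*, *Thbs2*, *App*, *Nfkbia* and *Col1a1*, where 611 of all genes tested passed. *Lpl* passed without *Ltf*-KO replicate 1, *Npm1* with median-of-ratios scaling and *Ticam1* with no variance trend. The lowest adjusted limma p of the named list genes in any alternative was 0.91. TPM gives no depth, so values under 1 TPM are the least certain.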
